A study of Mus musculus with 10 samples.

Results

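The tripartite motif (TRIM) family was followed in RNA from mouse dendritic cells with and without normal Ptbp1, the gene of an RNA-binding protein that represses and redirects splicing. Members were the genes of the count table whose symbol is Trim followed by a digit, with 1 gene left out by the rule, which gave 49 of 19178 gene rows. All 49 were protein coding and all 49 passed the filter on low counts, under which 18248 genes were tested. A further 19 annotated genes of this name pattern had no row and were not analysed here.

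Of the 10 libraries 5 carry the genotype Ptbp1 deficient and 5 the genotype WT (wild type), all from dendritic cells of mice aged 8 to 10 weeks. The labels name no strain, sex, source organ or isolation method, and they do not say which cells lost Ptbp1 or by what allele or driver. No treatment is given for either group. Nothing says that the 5 libraries of a group came from separate mice, so p-values measure the spread between these libraries, which may be technical.

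TRIM proteins carry an N-terminal RING domain, which makes most of them ubiquitin ligases, followed by B-box zinc fingers and a coiled coil through which they form dimers. The C-terminal part sets what each binds: a SPRY domain in most antiviral members, an NHL repeat domain, a bromodomain in the chromatin-bound members, or a microtubule-binding COS box. In myeloid cells many members are induced by interferon and either restrict viruses or tune the RIG-I, Toll-like receptor and NF-κB pathways, and rodents carry an expanded cluster of Trim5, Trim12, Trim30 and Trim34 copies on chromosome 7.

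Ptbp1 itself was at 74.4 ± 1.08 CPM (gene counts scaled to the size of the library; SD, n = 5) in the deficient libraries and 294 ± 21.1 in WT, a log2 fold change of -1.98 (adjusted p = 1.9e-09). Gene counts ran from 61759378 to 92697815 per deficient library and from 50516163 to 66153758 per WT library. Of the 13 dendritic cell markers none was at 0, and their summed level was 34357 to 37587 CPM in the deficient libraries and 28934 to 35137 in WT. Among markers of other cells, 11 of 14 macrophage and 10 of 12 B cell genes fell, and 7 of 12 natural killer (NK) cell genes rose. Over all genes tested, 21.9% rose and 23.1% fell at an adjusted p under 0.05. Summed macrophage markers were 636 to 1355 CPM in the deficient libraries, 1785 to 1854 in WT replicates 2 to 4, 3301 in WT replicate 1 and 4717 in WT replicate 5. Summed B cell markers were 120 to 145 CPM in the deficient libraries and 151 to 187 in WT replicates 2 to 4, with 278 in WT replicate 1 and 749 in WT replicate 5. Summed NK cell markers were 198 to 291 CPM in the deficient libraries and 37.6 to 117 in WT. No T cell, neutrophil or erythroid marker was called with all libraries, and 9 of 12 T cell and 9 of 10 neutrophil markers rose once WT replicates 1 and 5 were left out. In that setting 8 of 14 macrophage genes fell, 7 of 12 B cell genes fell and 2 rose, and 11 of 12 NK cell genes rose. Of all 18513 genes tested there, 4019 rose and 4129 fell. Without deficient replicates 1 and 2, 10 macrophage and 4 B cell genes fell, and 6 NK cell genes rose. Of 18642 genes in that fit, 3590 rose and 3846 fell.

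Promoter sequences are shown first, because 10 of the 12 members that rose belong to the interferon-inducible list, 8 of them copies from 1 cluster on chromosome 7. Promoter windows from RefSeq (build GRCm38.p6), from 250 bases before to 50 bases after the start, were found for 37 of the 49 members. Of their 51 windows, 45 had their last 30 bases in a GENCODE transcript of the gene. RefSeq starts thus did not all match the GENCODE genes that were counted. On both strands they were searched for the core of the interferon-stimulated response element (ISRE), which is GAAA, any 2 bases, and GAAA again. Of the members with a window, 7 of the 11 that rose (63.6%), 1 of the 9 that fell (11.1%) and 1 of the 17 not called (5.88%, Trim2) held it. Among all genes with a count row and a window, 451 of 11431 (3.95%) held it. Of the interferon-inducible members with a window 8 of 13 (61.5%) held it, among them Trim26, which fell. Another motif, GAS (TTCNNNGAA, with N any base), was found in 1 of 11 members that rose (9.09%) and 0 of 9 that fell. It was found in 3 of 17 members not called (17.6%) and in 948 of 11431 genes (8.29%). A match is a run of letters and not a measured binding site. The 30 bases around the ISRE match are printed 5′ to 3′ on the gene's strand, with the matching letters in capitals, for the members that changed.
Trim5 (chr7:104288136-104288165, minus strand): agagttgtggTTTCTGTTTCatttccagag
Trim12a (chr7:104315466-104315495, minus strand): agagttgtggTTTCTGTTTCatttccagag
Trim12c (chr7:104353359-104353388, minus strand): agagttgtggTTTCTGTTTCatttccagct
Trim30a (chr7:104465210-104465239, minus strand): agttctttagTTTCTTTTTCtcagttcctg
Trim30d (chr7:104507871-104507900, minus strand): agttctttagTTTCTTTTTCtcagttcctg
Trim34a (chr7:104244457-104244486, plus strand): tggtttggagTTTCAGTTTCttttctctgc
Trim21 (chr7:102565450-102565479, minus strand): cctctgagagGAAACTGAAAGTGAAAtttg
Trim26 (chr17:36836976-36837005, plus strand): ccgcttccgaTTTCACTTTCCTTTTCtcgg

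In Trim5, Trim12a and Trim12c the match is the same 10 letters, and the Trim5 and Trim12a windows share an unbroken run of 241 bases. Trim30a and Trim30d also carry the same 30 letters, and their windows were identical at 93.9% of 294 aligned positions. Matches in such copies are therefore not independent of each other. Trim34a and Trim34b, whose RNA moved in opposite directions, shared no run longer than 11 bases between their windows, and no ISRE match was found in the Trim34b window. Trim30a and Trim30b, which both rose, shared no run longer than 8 bases between the windows compared. The Trim30b window, whose lowest base was 104358597, lay inside the gene, which runs from 104369884 down to 104355382 in GENCODE. Its unlikeness to the Trim30a window therefore cannot tell whether the sequences at the GENCODE starts of these copies are unlike. A relation between likeness of windows and direction was not tested. The 250 bases before the start of Trim30a, Trim30d, Trim34a and Trim34b are shown so that a like and an unlike pair can be compared, with the ISRE match in capitals. The Trim34a match lies just after its start and so is in its site above and not in this stretch.
Trim30a (chr7:104465194-104465443, minus strand): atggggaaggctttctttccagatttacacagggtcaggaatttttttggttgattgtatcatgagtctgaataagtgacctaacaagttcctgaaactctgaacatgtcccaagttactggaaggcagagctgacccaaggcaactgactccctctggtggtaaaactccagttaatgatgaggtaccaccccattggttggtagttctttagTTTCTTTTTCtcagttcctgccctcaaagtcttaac
Trim30d (chr7:104507850-104508099, minus strand): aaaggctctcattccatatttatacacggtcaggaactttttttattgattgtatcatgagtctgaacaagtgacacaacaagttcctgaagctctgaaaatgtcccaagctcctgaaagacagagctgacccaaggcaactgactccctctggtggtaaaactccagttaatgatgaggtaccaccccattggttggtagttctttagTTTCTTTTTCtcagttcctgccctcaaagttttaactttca
Trim34a (chr7:104244207-104244456, plus strand): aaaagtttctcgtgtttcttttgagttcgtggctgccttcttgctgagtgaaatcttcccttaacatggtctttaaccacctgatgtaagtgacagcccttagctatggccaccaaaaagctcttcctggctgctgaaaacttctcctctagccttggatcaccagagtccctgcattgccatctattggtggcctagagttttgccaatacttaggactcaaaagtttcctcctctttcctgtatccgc
Trim34b (chr7:104329221-104329470, plus strand): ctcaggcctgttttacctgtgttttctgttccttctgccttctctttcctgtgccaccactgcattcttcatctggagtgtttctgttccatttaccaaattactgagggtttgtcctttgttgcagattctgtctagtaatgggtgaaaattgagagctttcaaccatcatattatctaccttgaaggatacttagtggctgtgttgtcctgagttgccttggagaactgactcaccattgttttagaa

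Of the 49 members 26 (53.1%) passed an adjusted p of 0.05 in edgeR's quasi-likelihood test over all 18248 genes, against a background of 45.0% of genes called. There were 12 that rose in the deficient libraries (24.5%, background 21.9%) and 14 that fell (28.6%, background 23.1%). Without WT replicates 1 and 5 there were 11 rises and 15 falls, and without deficient replicates 1 and 2 there were 9 and 14. Over all genes these settings gave 4019 rises and 4129 falls of 18513, and 3590 and 3846 of 18642. The shares in either direction were thus near those of all genes, and the family did not stand out by its count of calls. In 23 members (46.9%) the values of the 5 deficient and the 5 WT libraries did not overlap, against 33.4% of all genes. Most changes were small: 4 members changed more than 2-fold (8.16%, background 9.39%), all lower, and 12 of the 26 changed by less than 0.30 on the log2 scale. The median log2 fold change was -0.09 over members and -0.03 over all genes. With genes held to at least 1 CPM in at least 5 libraries, 25 of 41 members (61.0%) were called against 55.2% of genes. Of the 34 members in the deposited FPKM table (fragments per kilobase, a level per length), limma on log2(FPKM + 1) called 8 higher and 12 lower, against 20.3% and 27.2% of the genes in that table. In bulk RNA a lower level in fewer cells and a lower level in every cell cannot be told apart.

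**Figure D1:**
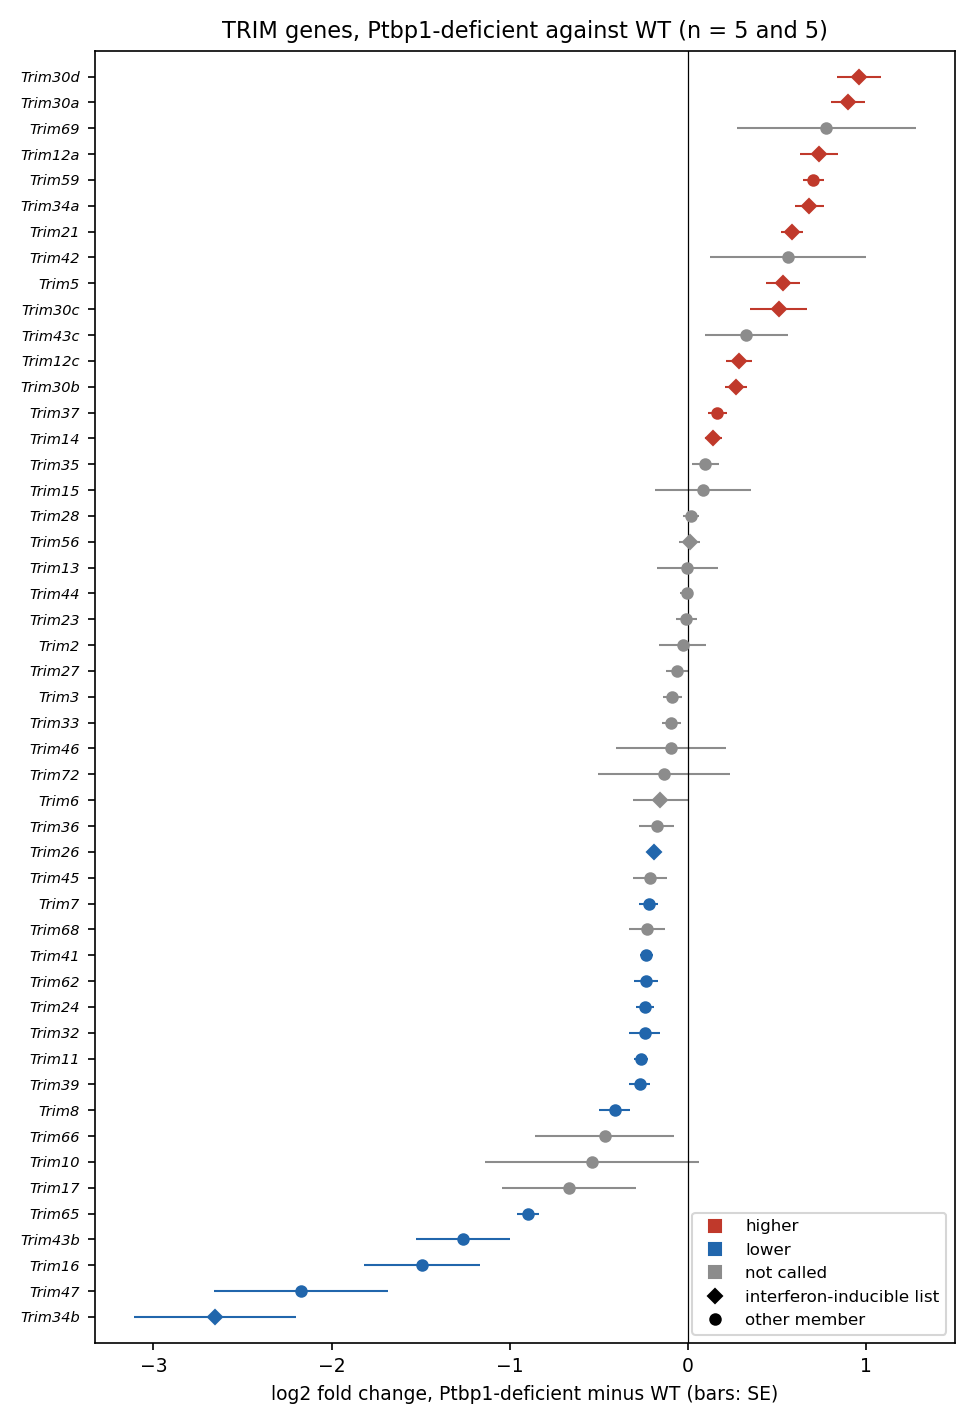
Log2 fold change (Ptbp1 deficient minus WT) of the 49 members in order of size, with bars of 1 standard error, red for members that rose, blue for those that fell, grey for those not called, and diamonds for the interferon-inducible list. The copies on chromosome 7 lie to the right of 0 except Trim6 and Trim34b, and most other called members lie slightly to the left.

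The direction differed between the interferon-inducible list and the other members, beside a background of 21.9% of all genes higher and 23.1% lower. Of the 14 interferon-inducible members measured, 10 rose and 2 fell (Trim26 and Trim34b), and Trim6 and Trim56 were not called, with a median over the list of 0.40 on the log2 scale. All 10 chromosome 7 copies are in this list and gave 8 of its rises, so the list mostly repeats that cluster. Elsewhere in the list Trim21 and Trim14 rose, Trim26 fell and Trim56 was not called, and the Trim14 call was lost in several settings. Of the 35 other members 2 rose (Trim37 and Trim59) and 12 fell, with a median of -0.18. The list of interferon-inducible members was written with earlier results of these libraries known and is no independent evidence of its direction. NK cell markers were higher, and macrophage and B cell markers lower, in the same deficient libraries, and their part in these counts was not tested. Without WT replicates 1 and 5 the interferon-inducible members gave 9 rises and 2 falls, and without deficient replicates 1 and 2 they gave 8 and 2.

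The Trim5, Trim6, Trim12, Trim30 and Trim34 copies fill 289 kb at chr7:104218793-104507849 (GRCm38, GENCODE M21). All 10 copies were measured, 8 rose, 1 fell (Trim34b) and Trim6 was not called, beside 21.9% of all genes higher and 23.1% lower. The median over the copies was 0.52 on the log2 scale. The counts were again 8 and 1 without WT replicates 1 and 5, and without deficient replicates 1 and 2 they were 7 and 1. Because copies share sequence, reads that could be placed in more than 1 gene were held out of the gene rows, so each copy is counted from the letters that set it apart. The share of 100-base stretches of a member's longest transcript that also occur in another gene was 4.79% in Trim30a, 5.53% in Trim30d, 7.64% in Trim12c, 12.7% in Trim5, 22.6% in Trim34a and 32.6% in Trim34b.

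Trim30a, which restrains Toll-like receptor signalling to NF-κB by removing the adaptors TAB2 and TAB3, was the copy with the highest level. It read 276, 289, 298, 356 and 281 CPM in deficient replicates 1 to 5 and 139, 156, 164, 152 and 195 CPM in WT replicates 1 to 5. Every deficient library was above every WT library, and deficient replicate 4 was the highest of all. The means were 300 ± 32.2 and 161 ± 21.1 CPM (SD, n = 5), 1.86 times as much, with a log2 fold change of 0.90 (SE 0.0934, adjusted p = 1.7e-05). Per transcript length it was 81.0 FPKM in the deficient group and 44.2 in WT, which made it the most abundant member in the deficient group and the second in WT, after Trim28.

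Its neighbour Trim30d, a close copy, had the largest rise of any member with a call. Trim30d was at 93.1, 96.6, 95.9, 110 and 94.3 CPM in the deficient libraries and at 45.7, 36.5, 59.4, 48.2 and 62.0 CPM in WT. The groups did not overlap, and again deficient replicate 4 was highest. Its mean was 97.9 ± 6.67 against 50.4 ± 10.4 CPM, 1.94 times as much, with a log2 fold change of 0.96 (SE 0.123, adjusted p = 7.4e-05). The ratio of Trim30d to Trim30a reads was 0.308 to 0.337 in the deficient libraries and 0.234 to 0.361 in WT, and the 2 groups were not told apart (exact two-sided permutation p = 0.635, adjusted 0.635 over 3 ratios).

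Trim5, Trim12a and Trim12c are the mouse relatives of the primate TRIM5α that recognises retroviral capsids. Trim12a read 158, 164, 158, 174 and 166 CPM in the deficient libraries and 94.6, 77.0, 114, 87.7 and 121 CPM in WT. The deficient values lay close together and above the WT values, which were spread more widely. The log2 fold change was 0.73 (SE 0.105, adjusted p = 1.7e-04). Trim5 followed with 50.7, 57.2, 51.2, 60.7 and 57.9 CPM against 41.1, 29.8, 43.1, 36.6 and 41.6 CPM, also without overlap, and a log2 fold change of 0.53 (SE 0.0939, adjusted p = 7.4e-04). The rise of Trim12c, from 129 to 156 CPM on average, was smaller at 0.28 (SE 0.0723, adjusted p = 0.0073). The ratio of Trim12a to Trim12c reads was 1.00 to 1.11 in the deficient libraries and 0.544 to 1.12 in WT (exact two-sided permutation p = 0.0476, adjusted 0.0714), so a difference between the 2 rises did not pass the adjusted threshold.

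Trim34a and Trim34b are a pair of copies on the same strand with the Trim5 and Trim12a genes between them. Trim34a was at 67.5, 73.4, 64.4, 75.2 and 68.8 CPM in the deficient libraries and at 39.7, 36.5, 50.9, 44.6 and 46.3 CPM in WT. The groups did not overlap, and the log2 fold change was 0.68 (SE 0.0828, adjusted p = 5.2e-05). Trim34b went the other way, with 1.53, 1.75, 1.46, 1.41 and 0.924 CPM in the deficient libraries and 11.2, 16.7, 4.55, 9.95 and 2.17 CPM in WT. The WT libraries spread widely, from 2.17 in replicate 5 to 16.7 in replicate 2, while every deficient library was below all of them. The deficient mean was 15.9% of the WT mean, and the log2 fold change was -2.66 (SE 0.454, adjusted p = 5.9e-04), the largest of any member. In the deposited FPKM table the fall was smaller, with means of 1.72 FPKM in the deficient group and 5.24 in WT, or -1.07 on the log2(FPKM + 1) scale (adjusted p = 0.0075) and -1.38 on the log2(FPKM + 0.1) scale. At such low levels the added 1 or 0.1 shrinks a log2 change, so these values are not on the scale of the -2.66 from counts. The cause of the rest of the gap between the tables was not tested.

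Trim34b reads per Trim34a read, a ratio that is comparable between libraries but not a ratio of molecules, was 0.0134 to 0.0239 in the deficient libraries and 0.0470 to 0.458 in WT. All deficient ratios lay under all WT ratios, which follows from the opposite moves of the 2 copies. The exact two-sided permutation test gave p = 0.00794 (adjusted 0.0238 over 3 ratios), the smallest p that 5 against 5 libraries allow. As those moves fixed the outcome, the test adds no evidence. As each copy shares sequence with the other, their split depends on which reads were counted as unique to either.

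**Figure D2:**
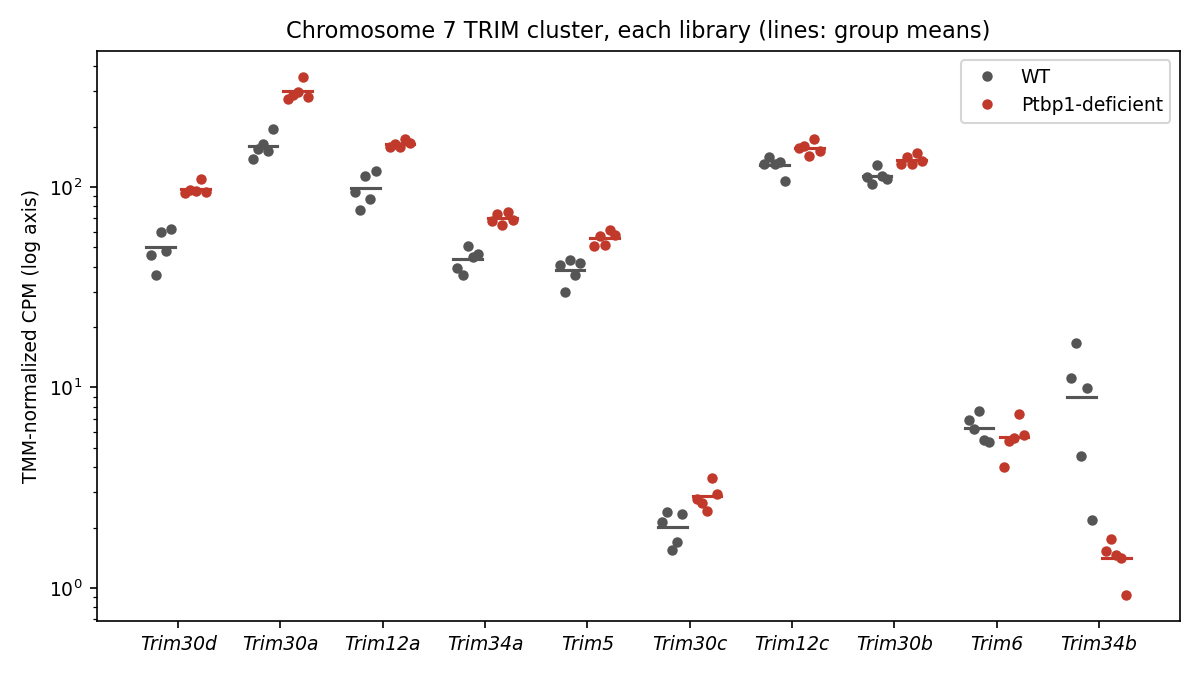
CPM (log axis) of the 10 copies on chromosome 7 in each library, with points for the 5 Ptbp1-deficient and 5 WT libraries and a bar at each group mean. Deficient points sit above WT points for Trim30a, Trim30d, Trim12a, Trim34a and Trim5, and below them for Trim34b.

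The remaining copies changed less. Trim30b rose from 114 to 137 CPM on average, by 0.27 (SE 0.0619, adjusted p = 0.0039), and missed the threshold in the deposited FPKM table (adjusted p = 0.060). Trim30c, a copy of low level, read 2.76, 2.64, 2.42, 3.53 and 2.95 CPM against 2.12, 2.38, 1.54, 1.70 and 2.33 CPM in WT. These groups stood just apart, with 2.42 the lowest deficient and 2.38 the highest WT value, and the log2 fold change was 0.51 (SE 0.161, adjusted p = 0.023). That call was lost without deficient replicate 4 or 5, or WT replicate 3 or 4, where the adjusted p was 0.0524 to 0.0704, and without deficient replicates 1 and 2 together (0.0526). Trim6, which makes unanchored ubiquitin chains that activate the kinase IKKε, was at 5.64 CPM in the deficient group and 6.29 in WT, with a log2 fold change of -0.16 (SE 0.154, adjusted p = 0.44) and overlapping groups.

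**Figure D3:**
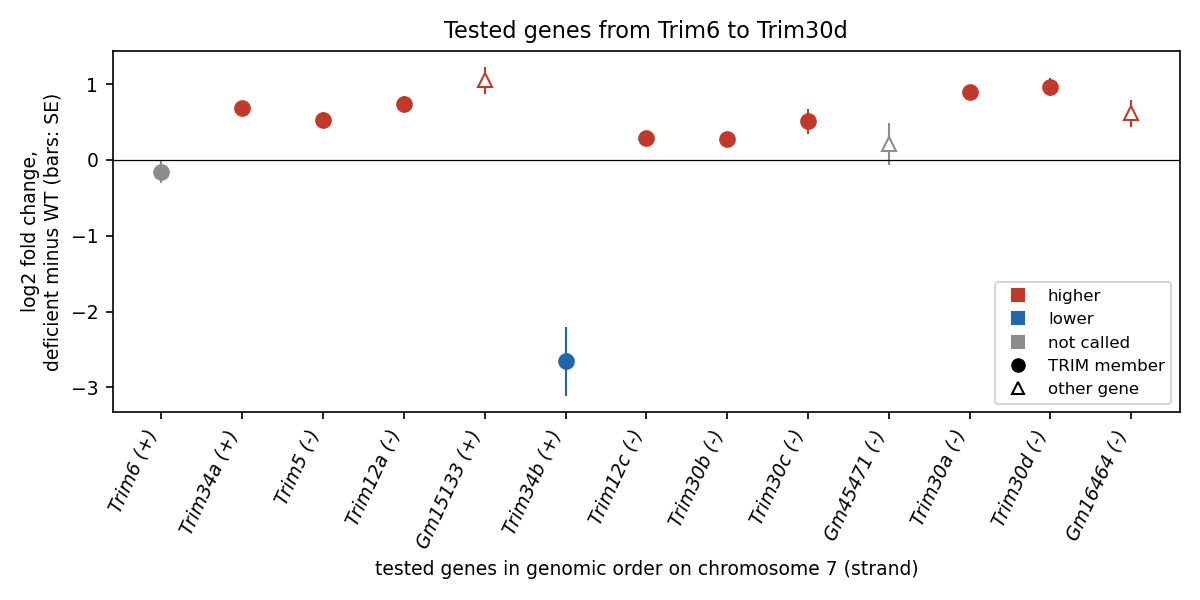
Log2 fold change (Ptbp1 deficient minus WT) with bars of 1 standard error for the tested genes of the 289 kb span, in the order in which they lie from Trim6 to Trim30d, with circles for members and open triangles for other genes. Trim34b at -2.66 lies among neighbours with values above 0.

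Among the other genes inside the span that were tested, Gm15133, an antisense transcript that overlaps the 5′ end of Trim12a, was at 7.39 CPM in the deficient group and 3.58 in WT, a log2 fold change of 1.05 (adjusted p = 5.0e-04). Gm16464, a processed pseudogene inside Trim30d, rose by 0.61 (adjusted p = 0.015), and Gm45471 had a value of 0.21 (adjusted p = 0.57). Neither gene shares exon bases with the member it overlaps, but the strand setting of the counting is unknown, so unspliced reads of each pair cannot be told apart.

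Among the 34 members with a deposited FPKM value, the make-up differed between the groups, with the summed copies higher and the sum of the other members lower. Summed over the 9 copies with a deposited FPKM value, the level was 279 ± 19.3 FPKM in the deficient libraries and 188 ± 12.6 in WT (SD, n = 5), while the 25 other members summed to 412 ± 12.6 and 451 ± 10.6 FPKM. The copies thus made up 38.9 to 43.3% of the summed FPKM of these members in the deficient libraries and 28.3 to 31.1% in WT, and the groups did not overlap. That gap follows from the changes of the single members and adds no evidence to them.

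**Figure D4:**
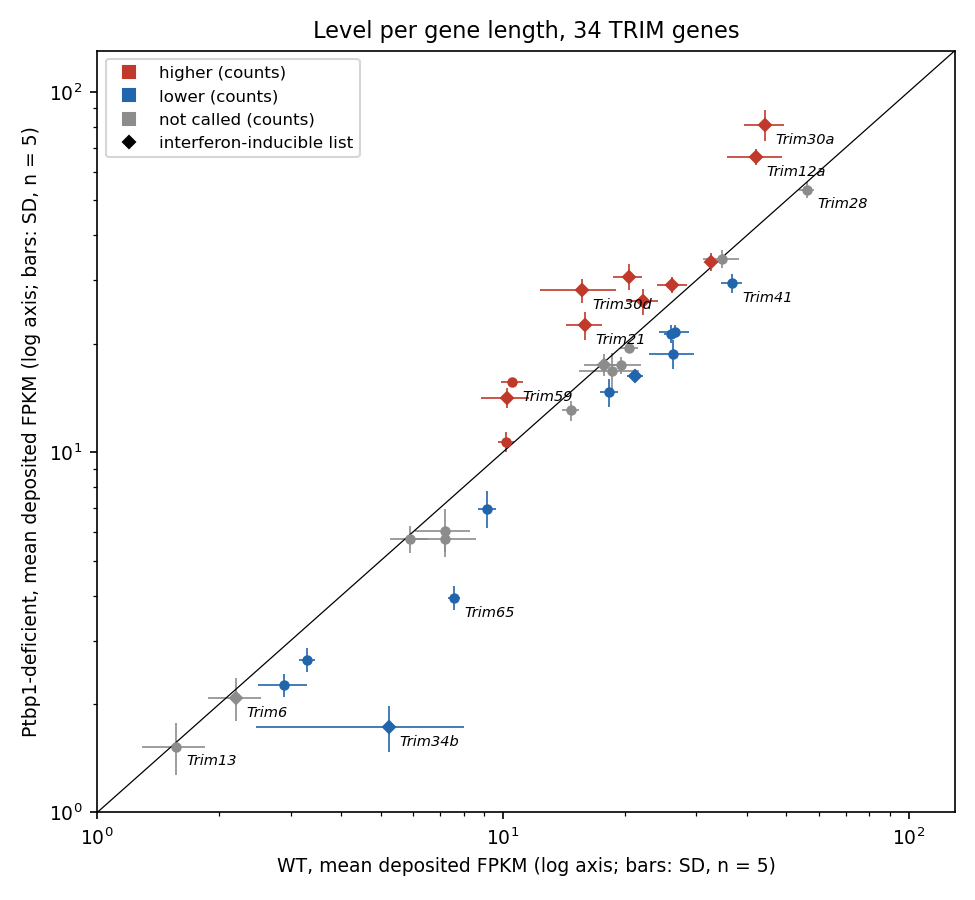
Mean deposited FPKM (per length, log axes) of the 34 members in that table, with WT on the horizontal and Ptbp1 deficient on the vertical axis and the line of equal level. Trim30a and Trim12a lie above the line, Trim65 and Trim34b below it, and Trim28 lies close to it.

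Outside the cluster Trim21 lies on the same chromosome (chr7:102557921-102565486) and encodes the cytosolic Fc receptor that marks antibody-coated virus for degradation. It read 58.9, 66.3, 60.7, 65.7 and 61.3 CPM in the deficient libraries and 44.4, 43.9, 42.7, 42.1 and 36.1 CPM in WT. The groups were well apart, with WT replicate 5 lowest, and the log2 fold change was 0.58 (SE 0.0598, adjusted p = 1.6e-05). Trim59, a membrane-anchored member outside the interferon list, was at 43.9, 47.3, 45.1, 46.5 and 45.9 CPM against 25.6, 27.0, 31.6, 29.9 and 26.4 CPM. Its deficient values were nearly equal to each other and clear of WT, with a log2 fold change of 0.70 (SE 0.0597, adjusted p = 4.0e-06), the smallest adjusted p of the members that rose.

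Trim14, an adaptor of antiviral signalling at mitochondria that has no RING domain, read 70.5, 69.4, 63.5, 70.0 and 62.6 CPM against 59.5, 57.6, 64.4, 60.0 and 63.1 CPM in WT. The groups overlapped, and the log2 fold change was 0.14 (SE 0.0485, adjusted p = 0.033). Nans, a gene on the opposite strand, overlaps 31.3% of the Trim14 exons. As the strand setting of the counting is unknown, it is not known how reads from the shared stretch were counted. The Trim14 call was lost without deficient replicate 1, 2 or 4, or WT replicate 1, 2 or 4, where the adjusted p was 0.0512 to 0.0817. It was also lost without WT replicates 1 and 5 together (0.0523), without deficient replicates 1 and 2 together (0.169), under upper-quartile scaling (0.113) and in the FPKM table (0.46). Trim37, a ligase of centrosomes and peroxisomes, had a log2 fold change of 0.16 (SE 0.0542, adjusted p = 0.028) with overlapping groups. It missed the threshold without deficient replicate 1, 2, 3 or 5, or WT replicate 1, 2 or 5, where the adjusted p was 0.0513 to 0.0640. The same held without WT replicates 1 and 5 together (0.124), without deficient replicates 1 and 2 together (0.135), under upper-quartile scaling (0.0934) and in the FPKM table (0.39).

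Among members that fell, Trim65, which attaches ubiquitin to the RNA sensor MDA5, had the smallest adjusted p of the whole family. Trim65 was at 15.6, 15.8, 18.5, 16.2 and 14.8 CPM in the deficient libraries and at 29.3, 29.9, 30.5, 32.0 and 29.3 CPM in WT. Both groups were tight and far apart, and the log2 fold change was -0.90 (SE 0.0622, adjusted p = 9.3e-07). Ifih1, the gene of MDA5, rose in the same libraries by 0.82 (adjusted p = 7.8e-07).

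Trim47, which shares 225 exon bases with Trim65 on the same strand, read 0.329, 0.422, 1.19, 0.722 and 0.671 CPM in the deficient libraries and 3.79, 1.65, 1.88, 1.24 and 6.60 CPM in WT. WT replicates 5 and 1 were the highest, the same libraries that were highest in macrophage and B cell markers, and the part of those markers in the fall was not tested. The log2 fold change was -2.17 (SE 0.487, adjusted p = 0.0035), and without WT replicates 1 and 5 it was -1.24 (adjusted p = 0.013).

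Trim16, a RING-less member tied to autophagy of damaged lysosomes, was at 0.460, 0.125, 0.583, 0.482 and 0.616 CPM against 1.45, 1.12, 1.57, 1.04 and 1.26 CPM in WT. No deficient library reached the lowest WT value, at levels near 1 CPM, and the log2 fold change was -1.49 (SE 0.324, adjusted p = 0.0028). Fbxw10, on the same strand, overlaps 237 of its exon bases. Trim43b, of a group known from the early embryo, fell by 1.26 on the log2 scale (adjusted p = 0.0023), with a mean under 1 CPM in both groups and 20.9% of its 100-base stretches found in other genes.

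Trim8, which promotes NF-κB activation by TNF and IL-1, read 74.9, 72.7, 67.2, 65.5 and 60.5 CPM in the deficient libraries and 85.8, 81.1, 87.9, 86.3 and 112 CPM in WT. WT replicate 5 was well above the other WT libraries, and the groups did not overlap. The log2 fold change was -0.41 (SE 0.0875, adjusted p = 0.0025).

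The other 8 falls were all under 0.30 on the log2 scale, from -0.19 to -0.27, in members with 7.62 to 154 CPM. Trim26, which lies in the class I major histocompatibility region at chr17:36837134-36859398 and acts on IRF3, read 131, 135, 138, 139 and 131 CPM against 148, 151, 163, 154 and 153 CPM in WT. It was the interferon-inducible member with an ISRE match that did not rise, and its fall of 0.19 (SE 0.0375, adjusted p = 0.0014) came without overlap. Trim39, from the same region, fell by 0.27 (SE 0.0590, adjusted p = 0.0028), from 71.6 to 59.3 CPM. Of the 4 members of this region 2 fell (23.1% of all genes did), with a median of -0.23, and Trim10 and Trim15 were not called.

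A list of other SPRY members, which does not hold every member with that domain, had 12 members tested. Of these 6 fell and none rose, with a median of -0.23, beside 23.1% of all genes lower and 21.9% higher. Without WT replicates 1 and 5, 7 fell and 1 rose (Trim69). Beside Trim65 and Trim47 the 6 that fell with all libraries were Trim11 at -0.26 (SE 0.0392, adjusted p = 2.2e-04), Trim41 at -0.23 (SE 0.0359, adjusted p = 2.8e-04), Trim62 at -0.24 (adjusted p = 0.015) and Trim7 at -0.22 (adjusted p = 0.0056). Trim41, a ligase of cytosolic and nuclear substrates, read 113, 111, 105, 110 and 107 CPM against 132, 123, 130, 126 and 131 CPM in WT. The gap between its groups was small beside its level but wider than the spread within either. Trim7, which was named for binding glycogenin, averaged 41.2 against 48.0 CPM, and an antisense transcript covers 6.46% of its exons.

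**Figure D5:**
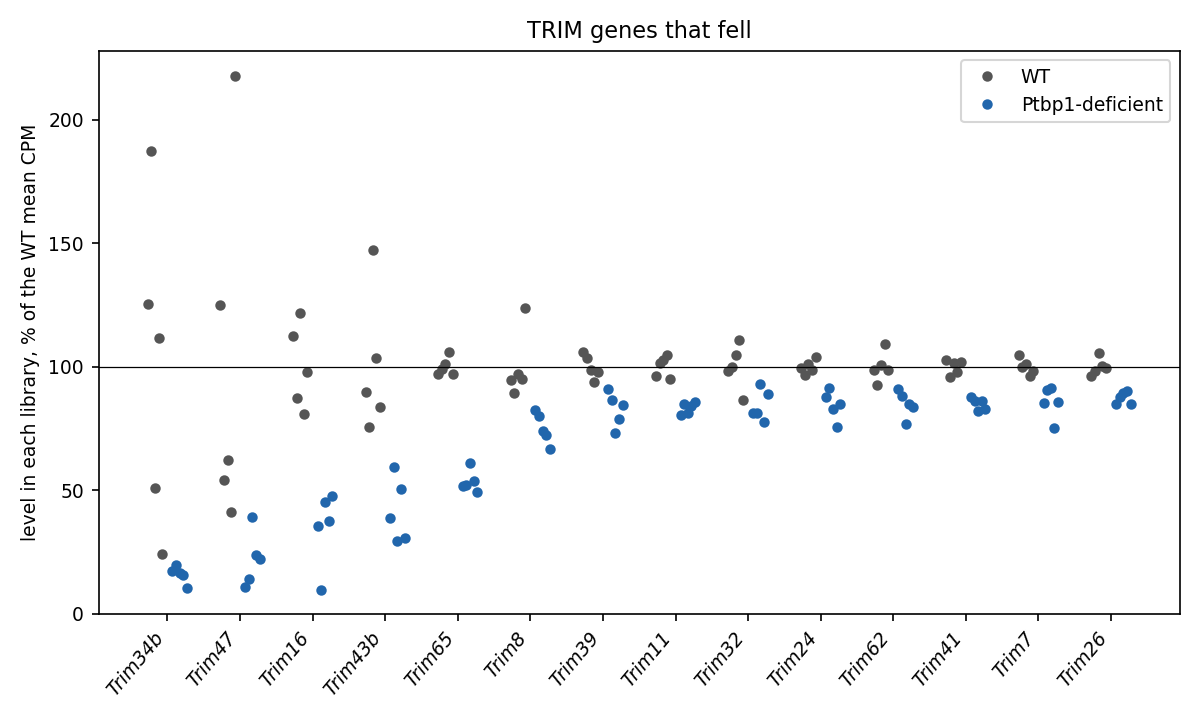
Level of each of the 14 members that fell, as a percentage of its WT mean CPM, in the 5 Ptbp1-deficient and 5 WT libraries. Trim34b and Trim47 drop furthest and scatter most in WT, and the falls of Trim11, Trim41 and Trim26 are shallow and tight.

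Among the chromatin regulators of the TIF1 group, 1 of 4 was called, against 45.0% of all genes. Trim24, a coregulator of nuclear receptors, read 55.4, 57.7, 52.5, 47.7 and 53.7 CPM against 63.0, 61.1, 63.9, 62.3 and 65.8 CPM in WT. The groups did not overlap, and the log2 fold change was -0.24 (SE 0.0501, adjusted p = 0.0020). Trim28, the corepressor that KRAB zinc finger proteins recruit to silence transposons, read 192, 198, 198, 184 and 193 CPM against 185, 182, 199, 204 and 184 CPM in WT. Its groups overlapped fully, at the highest WT level of the family per length (56.1 FPKM), and the log2 fold change was 0.02 (SE 0.0429, adjusted p = 0.80), a value that took either sign with the scaling. Trim33, which acts with SMAD4 in TGF-β signalling, had a value of -0.09 (adjusted p = 0.17) on counts and passed the threshold in the FPKM table (0.031).

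Of the 11 partners of Trim28 in silencing that were tested, 5 rose and 3 fell, with a median of 0.10. The split was 2 and 3 under upper-quartile scaling and in the FPKM table, and 3 and 2 without WT replicates 1 and 5. Of all genes 21.9% rose and 23.1% fell, and under upper-quartile scaling 3456 of 18248 rose and 4845 fell. Chd3, a remodeller of the NuRD complex, fell by 0.53 (adjusted p = 4.5e-05), Cbx5, the gene of heterochromatin protein HP1α, rose by 0.44 (5.4e-05), and Fam208a of the HUSH complex fell by 0.42 (1.1e-04).

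Among 3 members with NHL repeats Trim32, a ligase mutated in a limb-girdle muscular dystrophy, was at 7.62 CPM in the deficient group and 9.02 in WT. The groups overlapped, and the log2 fold change was -0.24 (SE 0.0859, adjusted p = 0.037). That call was lost without deficient replicate 1, 2 or 4, or WT replicate 1, 2, 3 or 4, where the adjusted p was 0.0566 to 0.0896, and without deficient replicates 1 and 2 together (0.138). Of 2 members with a COS box neither was called, beside 45.0% of all genes called. Trim36, a microtubule-binding ligase first studied in sperm, had a log2 fold change of -0.18 (SE 0.0995, adjusted p = 0.17), and without deficient replicates 1 and 2 it passed the threshold (adjusted p = 0.023).

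The 23 members that were not called divide by level. In 16 of them at least 1 group averaged 1 CPM or more, and their log2 fold changes ran from -0.23 (Trim68) to 0.33 (Trim43c) with standard errors of 0.0368 to 0.267. Trim44, a RING-less member, was at 118 and 119 CPM, Trim56, which takes part in Toll-like receptor 3 signalling, at 131 and 130 CPM, and Trim27 at 68.6 and 71.6 CPM in the deficient and WT groups. Trim35, one of the 5 members highest in FPKM, averaged 121 and 113 CPM, with a log2 fold change of 0.10 (SE 0.0746, adjusted p = 0.32). The other 7 were under 1 CPM in both groups (Trim10, Trim17, Trim42, Trim46, Trim66, Trim69 and Trim72), with standard errors of 0.307 to 0.602, so that changes of the size seen in most called members could not be detected there. Trim69 had a log2 fold change of 0.77 (adjusted p = 0.23), with 0.546 CPM in WT replicate 1 as the highest value of all libraries. Without WT replicates 1 and 5 its value was 1.76 (adjusted p = 0.0080).

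Of the 4 members of the family that carry other symbols, 1 rose and 2 fell, against 21.9% and 23.1% of all genes. Pml, the interferon-inducible organiser of nuclear bodies, was at 106 CPM in the deficient group and 49.3 in WT, a log2 fold change of 1.11 (adjusted p = 4.7e-04). Mefv, the gene of the inflammasome sensor pyrin, was at 105 and 215 CPM, a log2 fold change of -1.03 (adjusted p = 0.0026). Mid2, a microtubule-associated ligase, was at 0.672 and 5.96 CPM, a log2 fold change of -3.14 (adjusted p = 7.1e-06).

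The ubiquitin-conjugating enzymes that pass ubiquitin to TRIM ligases were mixed. Of 10 tested, 6 rose and 2 fell, and this split turned to 3 and 4 under upper-quartile normalization and to 1 and 3 in the FPKM table. Ube2d1 fell by 0.35 (adjusted p = 6.4e-05), Ube2e1 rose by 0.42 (adjusted p = 3.8e-04), and Ube2n, which builds lysine-63 chains, rose by 0.30 (adjusted p = 0.0027) on counts but had a value of -0.23 (adjusted p = 0.42) in the FPKM table. Among 15 genes of signalling proteins that TRIM ligases modify, 5 rose and 4 fell, with a median of 0.02, and 3 rose and 5 fell in the FPKM table, beside the same background shares. Beside Ifih1, Irf7 rose by 1.87 (adjusted p = 4.2e-07) and Ddx58, the gene of RIG-I, by 0.55 (adjusted p = 1.1e-05).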

How the data were processed

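Poly(A) RNA of 10 libraries was sequenced, per the labels' protocols. The authors deposited raw read counts per Ensembl gene and a filtered FPKM table whose values are all at least 1. The submitters' processing notes name HISAT2, StringTie, DESeq2 and the build GRCh38, although the identifiers are of mouse genes. The sources used here do not name the counter, its strand setting or the annotation. Reads outside genes (17.2 to 22.2%), not unique (4.51 to 5.08%) or ambiguous (1.78 to 1.94%) stood in rows of their own and were left out.

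Symbols and coordinates came from GENCODE M21 (GRCm38), and 129 of 19178 rows had no symbol. Counts were fitted over all genes with edgeR 4.0.16 in R 4.3.3 (filterByExpr, TMM, quasi-likelihood test, genotype as the single term). Calls used a Benjamini-Hochberg adjusted p under 0.05 over 18248 genes, and 930 genes were filtered out. CPM were computed from the gene counts with TMM-scaled library sizes. Ratios of 2 copies were compared with exact permutation tests.

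The text names the 10 largest rises and falls among called members of at least 1 CPM in the higher group, the 5 members highest in FPKM, and up to 3 called members per list (the highest in CPM where none was called), likewise up to 3 called genes in each list of other genes. Genes printed beyond that rule (Trim6, Trim7, Trim27, Trim33, Trim43b, Trim43c, Trim44, Trim56, Trim68, Trim69, Gm15133, Gm16464 and Gm45471) were chosen after their values were seen. Members and lists were chosen with earlier results of these data known. Of the lists not given elsewhere, 6 members with other C-terminal domains gave 2 rises and 1 fall (1 and 2 under upper-quartile scaling), 4 without a RING domain gave 1 and 1, and 13 dendritic cell markers gave 6 and 3. The background was 21.9% of all genes higher and 23.1% lower.

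Alternatives were DESeq2 1.42.0, limma 3.58.1 (voom, and log2 of the FPKM plus 1 or 0.1), RLE and upper-quartile scaling, other filters, an adjusted p under 0.01, a replicate block, and leaving out each library. Leaving out WT replicates 1 and 5, or deficient replicates 1 and 2, was chosen after seeing the data.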

Additional observations from a re-analysis of the deposited data

Results flagged for a closer look

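In 54 groups of 5 libraries (the named members in each genotype), the highest or lowest value was compared with the others by Dixon's criterion, which chance meets in about 1 group in 20. It was met in 4 groups. Trim30a was 356 CPM in deficient replicate 4 and 276 to 298 CPM in the other deficient libraries. Trim30d was 110 CPM in the same library and 93.1 to 96.6 CPM in the other 4. Trim21 was 36.1 CPM in WT replicate 5 against 42.1 to 44.4 CPM in the other WT libraries. Trim8 was 112 CPM in WT replicate 5 against 81.1 to 87.9 CPM in the others. The calls of these 4 members held without each of those libraries.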

How the results depend on the processing

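Over the 21 other settings at an adjusted p of 0.05, 19 of the 24 named members that were called kept their call and direction wherever they had a value. The exceptions were Trim14, Trim30c, Trim32 and Trim37, and Trim30b in the FPKM table. At an adjusted p of 0.01, 9 members rose and 12 fell, with 5668 genes called over all tested. Leaving out 1 library at a time gave 10 to 11 members that rose, 13 to 15 that fell and 7239 to 8368 genes called, and 8 to 10 interferon-inducible members that rose. The fit with the replicate number as a block gave 10 rises, 13 falls and 7538 genes, without Trim14, Trim32 and Trim37 (adjusted p 0.0897, 0.0824 and 0.0546); same-numbered libraries deviated together with correlations of -0.10 to 0.11, so the numbers were not taken to pair samples. Trim28 took the other sign under upper-quartile scaling (-0.0282), voom (-0.0035), log2(FPKM + 1) (-0.0664), log2(FPKM + 0.1) (-0.0675), without WT replicate 2 (-0.0042; 0.0410 without WT replicate 4) and without WT replicates 1 and 5 (-0.0173), and Trim35 in the FPKM fits (-0.0089 and -0.0091); the cause was not tested. Read numbers limit the members under 1 CPM, whose lowest library had 3 reads.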

Other observations

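The WT libraries were not alike within the chromosome 7 cluster. WT replicate 2, with the highest Trim34b level (16.7 CPM), had the lowest WT level of 5 of the 8 copies that rose, among them Trim12a (77.0 CPM), Trim34a (36.5 CPM) and Trim5 (29.8 CPM), and the highest WT level of 2 of the 8, Trim12c (141 CPM) and Trim30c (2.38 CPM). WT replicate 5, with the lowest WT level of Trim34b (2.17 CPM), had the highest WT level of 3 of the 8, namely Trim12a (121 CPM), Trim30a (195 CPM) and Trim30d (62.0 CPM). It had the lowest WT level of Trim12c (108 CPM) and, outside the cluster, of Trim21 (36.1 CPM).

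Within the deficient group, replicates 1 and 2 had the highest levels of Trim8 (74.9 and 72.7 CPM) and of Trim36 (36.3 and 34.7 CPM). Replicate 4 had the highest deficient level of Trim30a, Trim30c, Trim30d, Trim34a, Trim5, Trim6, Trim12a, Trim12c and Trim30b. No order was tested.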
